A study of Mus musculus with 10 samples.

Results

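Expression of 9 enzymes of methionine, folate and transsulfuration metabolism was examined in mouse liver by RNA-seq. The enzymes were chosen by gene symbol, and each symbol matched 1 of the 41388 Ensembl genes in the deposited count files, giving 9 members. All 9 passed the filter on low values and were among the 13444 genes tested. The libraries came from 3 groups of C57B/6J mice, all labelled as 12 weeks old, with 1 library per sample. WT refed mice (n = 2) were fasted for 22 h and then refed for 2 h, WT fasting mice (n = 3) were fasted for 24 h, and NAMPT LKO fasting mice (n = 5) were fasted for 24 h. The labels were followed here. The study's text differs from them in giving a shorter fast, random-fed controls, a younger age range and a larger WT fasting group. Every mouse carried loxP-flanked Nampt alleles (Nampt fl/fl), and WT mice are littermates in which the gene is intact. In NAMPT LKO mice, Cre recombinase driven by the Albumin promoter deletes Nampt in hepatocytes, so other liver cells keep the gene. No refed NAMPT LKO library was analysed here, and genotype can therefore be compared only after fasting.

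The methionine cycle makes S-adenosylmethionine (SAM), the methyl donor of most cellular methylation, and the liver is its main site. Methionine adenosyltransferase makes SAM, methyltransferases turn it into S-adenosylhomocysteine, and a hydrolase splits that product into homocysteine and adenosine. Homocysteine is either methylated back to methionine, with betaine or a folate as methyl donor, or passed through transsulfuration to cysteine. Serine hydroxymethyltransferases feed the folate pool with one-carbon units from serine. Nampt makes the nicotinamide mononucleotide from which cells rebuild NAD, and the methylation of nicotinamide by Nnmt consumes SAM, which joins the 2 pathways.

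Mat1a encodes the liver form of methionine adenosyltransferase. Gnmt, glycine N-methyltransferase, uses SAM to methylate glycine, and Ahcy is the S-adenosylhomocysteine hydrolase. Bhmt transfers a methyl group from betaine to homocysteine, and Bhmt2 is a related methyltransferase that uses S-methylmethionine. Cbs and Cth, cystathionine beta-synthase and gamma-lyase, carry out the successive steps of transsulfuration. Shmt1 and Shmt2 are the cytosolic and mitochondrial serine hydroxymethyltransferases. Bhmt and Bhmt2 are neighbours on the minus strand of chromosome 13 (GRCm38), at chr13:93616891-93637961 and chr13:93655720-93674302, with 17758 bases and 0 annotated genes between them. They are related in sequence, so reads could be shared between them, which was not tested. Ahcy lies at chr2:155059310-155074497, Gnmt at chr17:46725664-46729168, Cbs at chr17:31612623-31637199, Cth at chr3:157894248-157925077, Shmt1 at chr11:60788104-60811718 and Shmt2 at chr10:127517123-127522444, all on the minus strand, and Mat1a at chr14:41105381-41124412 on the plus strand. The counts cover the exons of each gene. The exons of Bhmt, Shmt1 and Shmt2 overlap exons of a gene on the other strand by 187, 184 and 30 bases. The strand setting of the counting is not given in the sources used here, and reads from those stretches cannot be assigned with certainty.

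Ahcy and Gnmt are the members with the lowest p in the comparison of feeding states and in the comparison of genotypes, and the 250 bases before their RefSeq starts are printed for that reason. Promoter windows of RefSeq (GRCm38.p6) held 7 of the 9 members, all but Mat1a and Cth. Both sequences run 5′ to 3′ on the minus strand, Ahcy at chr2:155074498-155074747 and Gnmt at chr17:46729166-46729415, and capitals mark the motif CCAAT read on the opposite strand. The RefSeq starts differ slightly from the Ensembl bounds given above for Gnmt, so that the last 3 bases of its window lie inside the Ensembl gene, while 0 bases of the Ahcy window do.
Ahcy: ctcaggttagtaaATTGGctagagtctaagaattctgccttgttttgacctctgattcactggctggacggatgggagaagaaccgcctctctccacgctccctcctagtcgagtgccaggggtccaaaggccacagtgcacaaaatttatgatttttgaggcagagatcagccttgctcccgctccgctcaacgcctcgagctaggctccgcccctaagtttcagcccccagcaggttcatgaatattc
Gnmt: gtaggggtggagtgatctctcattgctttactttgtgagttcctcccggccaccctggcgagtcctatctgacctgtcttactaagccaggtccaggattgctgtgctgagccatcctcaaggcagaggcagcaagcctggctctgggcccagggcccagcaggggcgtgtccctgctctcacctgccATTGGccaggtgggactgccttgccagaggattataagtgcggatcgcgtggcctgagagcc
The motif began 237 bases before the RefSeq start of Ahcy and 62 bases before that of Gnmt. In windows of 250 bases before and 50 bases after the start, searched on both strands, CCAAT occurred in 5 of 7 members (Ahcy, Gnmt, Bhmt, Cbs and Shmt1) and in 37.4% of 32851 windows. TGACG occurred in 1 member, Shmt1, and in 20.8% of windows. CACGTG occurred in 1 member, Cbs, and in 7.15% of windows, and TATAAA occurred in 0 members and in 13.6% of windows. These are matches of letters only and say nothing about binding.

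Total counts ranged from 30603080 to 43434139 over the 10 libraries. The lowest count of any member was 4449 (Shmt1), so counting error was small for all 9 and the spread between livers set the precision. The liver label was met by its markers. Summed CPM (counts scaled by library total) of 8 hepatocyte markers lay between 71800 and 108200 in every library, and pancreatic acinar markers did not exceed 0.0636 CPM. Nampt itself averaged 13.2 ± 1.49 CPM (TMM-normalized, SD, n = 5) with hepatocyte Nampt deleted, against 92.3 ± 42.3 CPM (SD, n = 3) in fasted WT mice (log2 fold change -2.81, SE 0.22, edgeR adjusted p = 0.00102). One library stood apart. In NAMPT LKO mouse 5, mitochondrially encoded genes took 21.1% of counts, against 7.42% to 12.9% in the other 9 libraries, and its deviation from the mean of all libraries correlated with GC content across genes (Spearman's rho -0.563, a description over genes). NAMPT LKO mouse 3 had 7088 summed CPM of acute phase genes, against 35.6 to 143 in the other libraries. In bulk liver, fewer cells of a type and less RNA per cell cannot be told apart.

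Compared per length, as RPKM (CPM per kilobase of exon) over the 10 libraries, the members spanned a wide range. Mat1a was the most abundant with a mean of 1627 RPKM, rank 36 of the genes tested, followed by Gnmt (1244 RPKM), Ahcy (893.9 RPKM) and Bhmt (669.4 RPKM). A lower tier held Cth (139.7 RPKM), Bhmt2 (109.6 RPKM), Shmt2 (96.38 RPKM), Cbs (94.29 RPKM) and Shmt1 (39.94 RPKM). Between neighbours in this order, the ranges over libraries did not overlap between Bhmt (lowest 411 RPKM) and Cth (highest 182 RPKM), nor between Cbs (lowest 58.5 RPKM) and Shmt1 (highest 50.3 RPKM). The ranges of all other neighbours overlapped over libraries. Within libraries, Mat1a ranked first in all 10 and Gnmt ranked second in 9, whereas Bhmt2 and Cbs held their places in only 5 each. Together the 9 genes took 1.23% to 1.67% of all counts in a library. Within a library, the mitochondrial form Shmt2 always exceeded the cytosolic Shmt1, with a ratio of Shmt1 to Shmt2 RPKM of 0.369 to 0.476. Bhmt2 stood at 0.119 to 0.248 of Bhmt, and Cbs at 0.437 to 0.938 of Cth.

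WT fasting and WT refed livers were compared to ask how the pathway differed with feeding state. No library came from unfasted mice, so rose and fell mean higher or lower in WT fasting than in WT refed livers. Ahcy was the only member that passed edgeR's quasi-likelihood test. Its TMM-normalized level was 1812 and 1904 CPM in the WT refed livers and 2905, 3202 and 2944 CPM in the WT fasting livers. Every WT fasting liver lay above both WT refed livers. Ahcy rose by 0.70 on the log2 scale (SE 0.12, 95% interval 0.43 to 0.97, adjusted p = 0.00743 by the quasi-likelihood test of edgeR). The call depended on both WT refed libraries. Without WT refed mouse 1 the log2 fold change was 0.65 (edgeR adjusted p = 0.106), and without WT refed mouse 2 it was 0.73 (edgeR adjusted p = 0.0889). Under voomWithQualityWeights, named in the study's methods, Mat1a and Shmt1 also passed (adjusted p = 0.0276 and 0.038). Under edgeR's exact test, named in its figure legends, Ahcy alone passed.

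In all, 1 of 9 members passed an adjusted p of 0.05 in this comparison, against 7.04% of the genes tested. The groups did not overlap for 5 of 9 members, against 49.7% of the genes tested, a share near the background. The median log2 fold change of the members was 0.021, and that of the genes tested was 0.037.

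Enzymes that make and use SAM lay higher in WT fasting livers without passing the test. Mat1a was 4072 and 4712 CPM in WT refed livers and 5782, 5402 and 5453 CPM in WT fasting livers. Its log2 fold change was 0.34 (95% interval -0.024 to 0.70, edgeR adjusted p = 0.254), and with NAMPT LKO mouse 5 left out of the joint fit the adjusted p was 0.0426. Gnmt was 1397 and 1534 CPM in WT refed livers and 1590, 2008 and 1890 CPM in WT fasting livers (log2 fold change 0.32, 95% interval -0.024 to 0.66, edgeR adjusted p = 0.255). Neither gene overlapped between the groups.

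The serine hydroxymethyltransferases were the members whose WT fasting livers all lay below both WT refed livers. Shmt1 was 188.8 and 174.4 CPM in WT refed livers and 153.7, 149.0 and 158.4 CPM in WT fasting livers (log2 fold change -0.24, 95% interval -0.51 to 0.025, edgeR adjusted p = 0.268). For Shmt2 the values were 248.4 and 258.0 CPM against 223.3, 239.5 and 246.3 CPM (log2 fold change -0.099, 95% interval -0.34 to 0.14, edgeR adjusted p = 0.643). The groups of Shmt2 were separated by the step from 246.3 to 248.4 CPM.

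For the remaining 4 members the groups overlapped. Bhmt was 3385 and 4093 CPM in WT refed livers and 2823, 5097 and 3465 CPM in WT fasting livers. Its log2 fold change of 0.021 had a 95% interval from -0.98 to 1.02, so that changes within that interval were not excluded by these libraries. Bhmt2 had a log2 fold change of -0.25 (95% interval -0.75 to 0.25), Cbs of 0.17 (-0.24 to 0.58) and Cth of -0.026 (-0.49 to 0.44). Cth was already spread from 249.2 to 400.8 CPM between the WT refed livers.

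**Figure D1:**
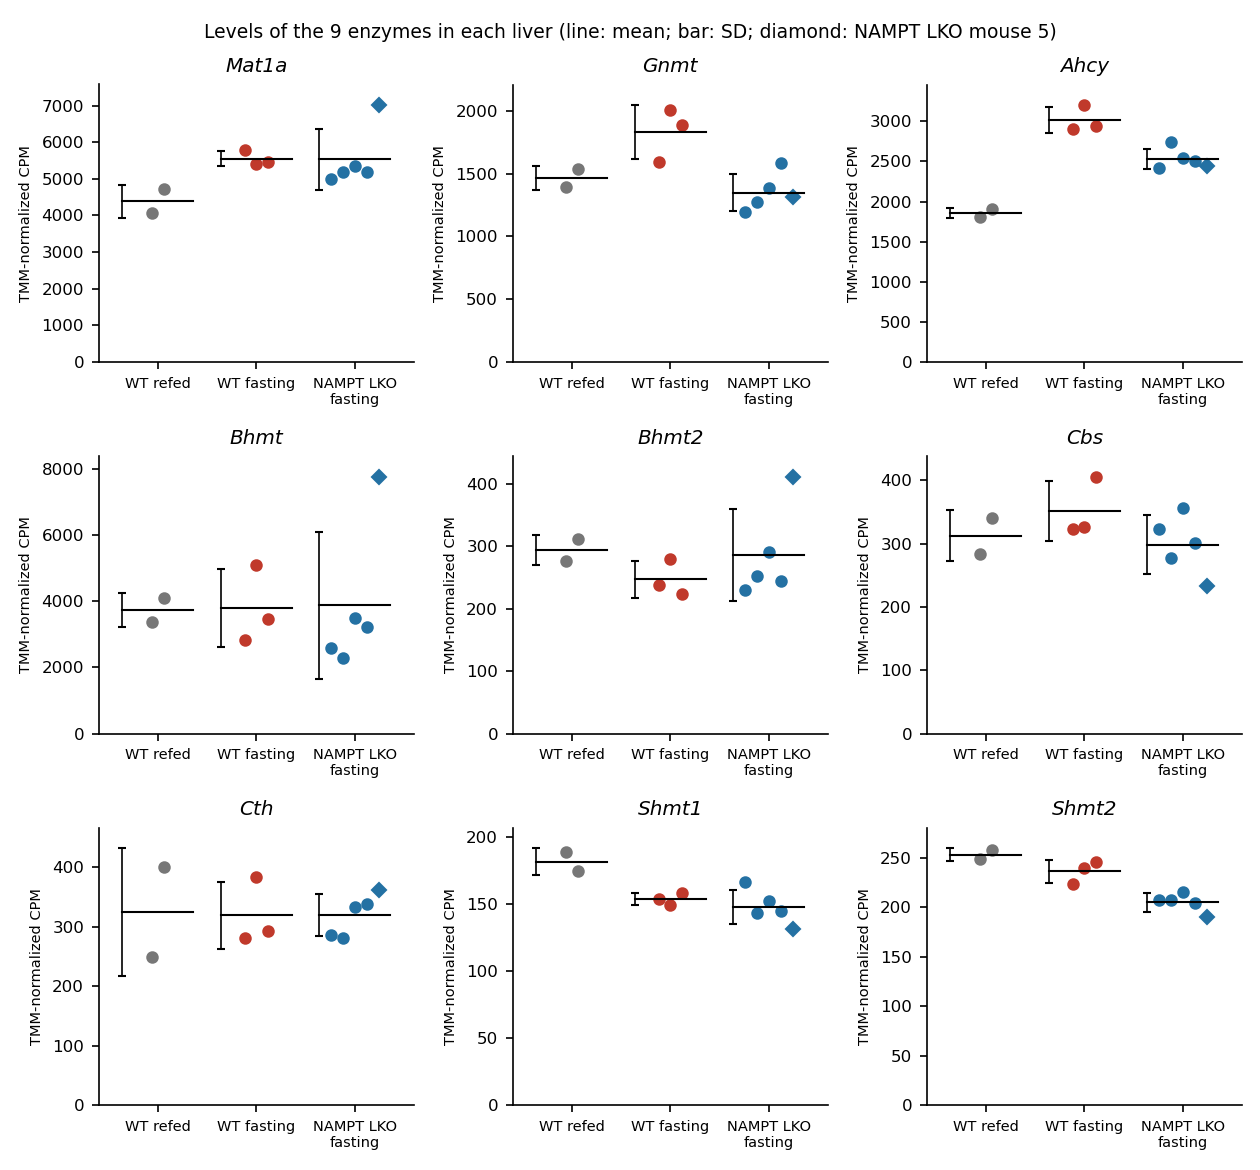
TMM-normalized CPM of each enzyme (vertical axes, linear from 0) in each liver, by group (WT refed n = 2, WT fasting n = 3, NAMPT LKO fasting n = 5). Points are livers, lines are means, bars are SD and the diamond is NAMPT LKO mouse 5, which lies far above its group for Mat1a (7014 CPM) and Bhmt (7779 CPM). The 3 groups of Ahcy do not overlap.

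The fasted genotypes were compared to ask how the enzymes differed when hepatocytes lacked Nampt. None of the 9 members passed an adjusted p of 0.05, against 0.00744% of the genes tested, which was Nampt alone. At an unadjusted p under 0.05, 3 of 9 members passed in edgeR's quasi-likelihood test, against 6.03% of the genes tested, and DESeq2, edgeR's exact test and voomWithQualityWeights also called 0 members at the adjusted threshold. The same 3 members, Gnmt, Ahcy and Shmt2, did not overlap between the groups, against 3.99% of the genes tested, and all 3 were lower in NAMPT LKO fasting livers. The median log2 fold change was -0.058 over the members and 0.0003 over the genes tested.

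Gnmt had the lowest p of the members, rank 68 of the genes tested. It was 1191, 1270, 1382, 1588 and 1312 CPM in NAMPT LKO fasting livers and 1590, 2008 and 1890 CPM in WT fasting livers. The groups were separated by the step from 1588 to 1590 CPM. Its log2 fold change was -0.44 (SE 0.12, 95% interval -0.71 to -0.17, unadjusted p = 0.00423, edgeR adjusted p = 0.761). The adjusted p ranged from 0.144 to 0.989 over 22 alternatives, and the log2 fold change from -0.53 to -0.32.

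Ahcy was 2414, 2739, 2544, 2510 and 2440 CPM in NAMPT LKO fasting livers, below the 2905 CPM of the lowest WT fasting liver and above the 1904 CPM of the highest WT refed liver. Its log2 fold change against WT fasting livers was -0.25 (95% interval -0.46 to -0.047, unadjusted p = 0.0208, edgeR adjusted p = 0.798). Shmt2 was 207.4, 207.5, 215.5, 204.0 and 189.9 CPM, below the 223.3 CPM of the lowest WT fasting liver, with a log2 fold change of -0.21 (95% interval -0.40 to -0.014, unadjusted p = 0.038, edgeR adjusted p = 0.827). Once the GC content trend of each library was removed, the log2 fold change of Shmt2 was -0.093 and its unadjusted p 0.387, that of Gnmt was -0.32 with an unadjusted p of 0.0549, and that of Ahcy was -0.21 with an unadjusted p of 0.0508. None of the 3 then had an unadjusted p under 0.05 in edgeR's quasi-likelihood test. Without NAMPT LKO mouse 5, the log2 fold change was -0.43 for Gnmt, -0.24 for Ahcy and -0.18 for Shmt2. In that fit the unadjusted p was 0.00481, 0.0131 and 0.0253 (edgeR adjusted p = 0.588, 0.588 and 0.59). Gnmt and Shmt2 are the members with the highest GC content (57.5% and 57.4%), against a median of 49.6% over genes.

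The other 6 members overlapped between the genotypes. Cbs had a log2 fold change of -0.24 (95% interval -0.56 to 0.089), Shmt1 of -0.058 (-0.27 to 0.16), Mat1a of -0.0013 (-0.29 to 0.28) and Cth of 0.0037 (-0.37 to 0.38). The widest intervals were those of the homocysteine methyltransferases. Bhmt had a log2 fold change of 0.031 (-0.77 to 0.83) and Bhmt2 of 0.21 (-0.20 to 0.62). Without NAMPT LKO mouse 5, these values were -0.39 for Bhmt and 0.042 for Bhmt2.

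The summed level of markers of cholangiocytes, the cells of the bile ducts, was higher in every NAMPT LKO fasting liver than in any WT liver. Summed CPM of 5 cholangiocyte markers was 34.6 to 51.0 in NAMPT LKO fasting livers, 15.2 to 21.2 in WT fasting livers and 20.7 and 23.1 in WT refed livers. Spp1 was the most abundant of the 5 in NAMPT LKO fasting livers, at 19.8 to 35.5 CPM, against 8.70 to 10.9 CPM in WT fasting livers. The defining marker Krt19 was 0.793 to 1.86 CPM and 0.383 to 0.457 CPM. Of the 5 markers, Sox9 overlapped between the fasted genotypes (9.41 to 10.8 CPM against 5.31 to 10.02 CPM), and Krt19 and Krt7 overlapped between NAMPT LKO fasting and WT refed livers. Summed CPM of 5 stellate cell markers overlapped between the fasted genotypes, at 55.7 to 80.0 and 53.9 to 66.7. One of them, the collagen gene Col1a1, did not overlap (1.69 to 8.66 CPM against 1.27 to 1.59 CPM), while each of the other stellate cell markers overlapped. Hepatocyte markers overlapped, at 71800 to 102100 summed CPM in NAMPT LKO fasting livers and 87360 to 108200 in WT fasting livers. The part of these cell types in the values of Gnmt, Ahcy and Shmt2 was not tested.

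**Figure D2:**
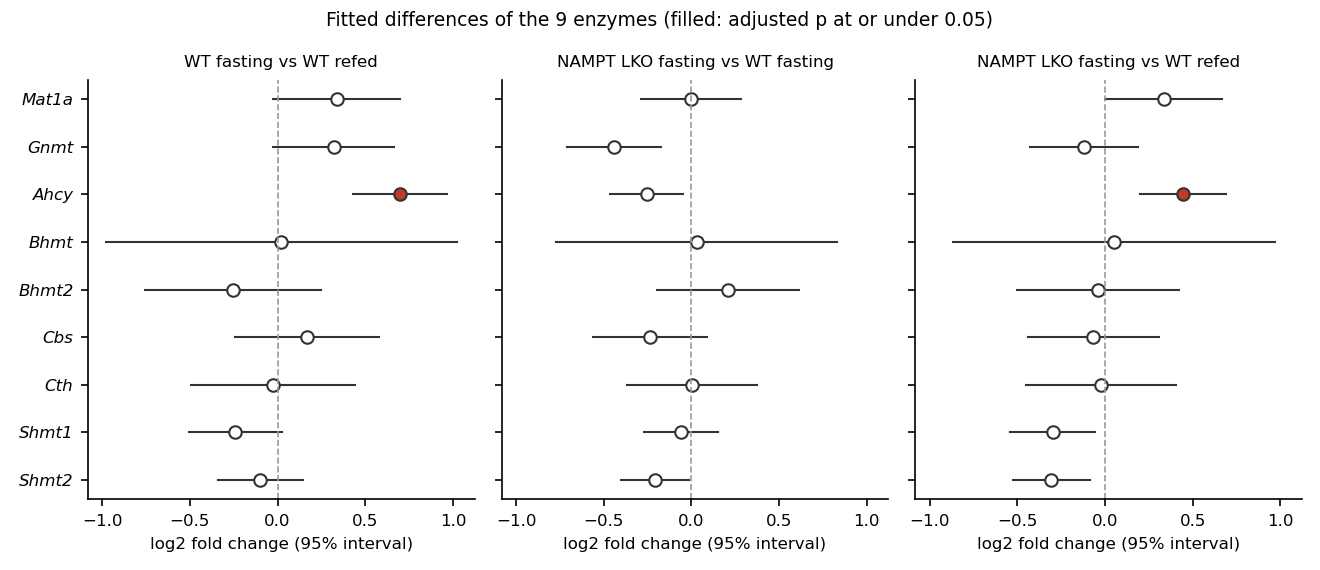
Log2 fold change of each enzyme (points) with its 95% interval (lines) in the 3 comparisons, from edgeR's quasi-likelihood fit of all 10 libraries. Filled points passed an adjusted p of 0.05, which Ahcy did in both comparisons with WT refed livers (0.70 and 0.45), and no enzyme did between the fasted genotypes.

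NAMPT LKO fasting livers were also set against the WT refed livers. This comparison changes feeding state and genotype together and shares its libraries with the others, so its values are given side by side only. Ahcy was the 1 member of 9 that passed, against 11.2% of the genes tested, with a log2 fold change of 0.45 (SE 0.11, 95% interval 0.20 to 0.69, edgeR adjusted p = 0.0282), next to 0.70 in WT fasting livers. The call was lost without WT refed mouse 1 (edgeR adjusted p = 0.248), WT refed mouse 2 (0.203), NAMPT LKO mouse 2 (0.0708) or NAMPT LKO mouse 3 (0.0502). The groups did not overlap for 4 of 9 members, against 33.5% of the genes tested. Those were Mat1a and Ahcy, higher, and Shmt1 and Shmt2, lower in NAMPT LKO fasting livers. Shmt2 had a log2 fold change of -0.31 (edgeR adjusted p = 0.0736), which became -0.28 (edgeR adjusted p = 0.0306) without NAMPT LKO mouse 5. Shmt1 had a log2 fold change of -0.30 (edgeR adjusted p = 0.108) and Mat1a of 0.34 (edgeR adjusted p = 0.189). The other 5 lay between -0.12 (Gnmt) and 0.052 (Bhmt), and none passed.

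NAMPT LKO mouse 5 lay at the edge of its group for most members. It lay outside the range of the other 4 NAMPT LKO fasting livers for 7 of 9 members, and for 69.4% of the genes tested. Bhmt was 7779 CPM in that liver, against 2295 to 3497 CPM in the other 4, a log2 difference of 1.44 from their mean. Bhmt2 was 411.5 CPM against 229.3 to 290.8 CPM, and Mat1a was 7014 CPM against 4993 to 5338 CPM. Cth also lay above the other 4, while Cbs, Shmt1 and Shmt2 lay below them. Bhmt and Cth have the lowest GC content of the members (43.1% and 44.2%). Bhmt2, Mat1a and Cbs have a GC content of 49.9%, 49.8% and 49.8%, and their log2 differences in this liver were 0.70, 0.44 and -0.43. Over the 9 members Spearman's rho between GC content and this difference was -0.285, given as a description. The values of Gnmt and Ahcy in this liver lay within the range of the other 4. The part of the mitochondrial share of this library in these values was not tested.

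**Figure D3:**
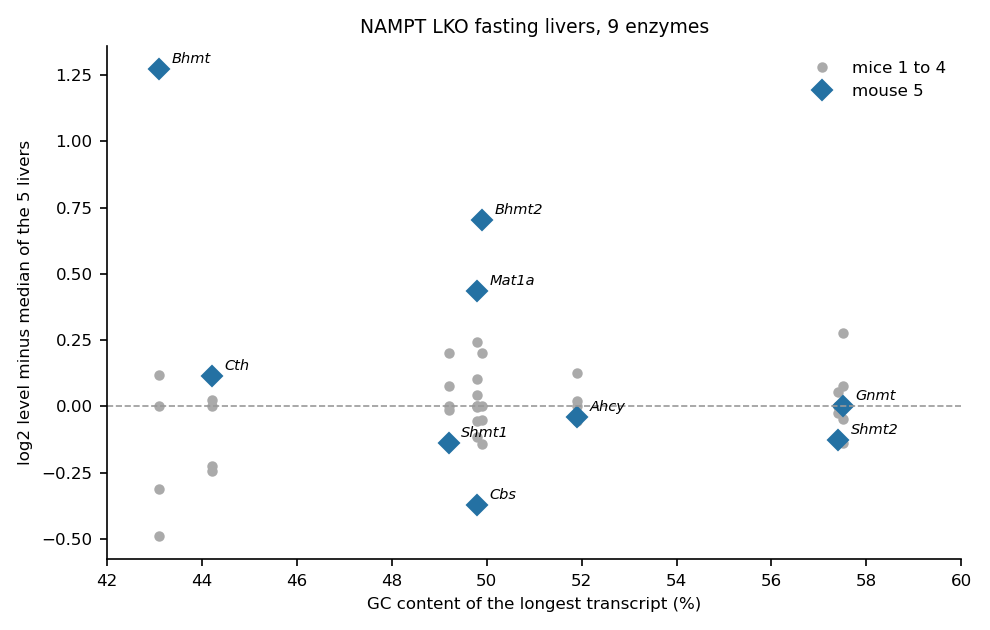
Log2 level of each enzyme minus the median of the 5 NAMPT LKO fasting livers (vertical axis) against the GC content of its longest transcript in percent (horizontal axis). Diamonds are mouse 5, named by gene, and grey points are mice 1 to 4. Bhmt of mouse 5 lies 1.27 above the median, and genes with a GC content near 50% lie on both sides of 0.

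Other genes of the pathway were examined in 6 lists of 66 genes, of which 64 passed the filter (Aldh1l2 and Psat1 did not). In WT fasting vs. WT refed livers 6 of 64 passed the test, or 9.38%, with 2 higher and 4 lower, a share near the 7.04% of all genes tested. The median log2 fold change of the 64 was 0.025, and that of all genes tested 0.037. The count rested on single libraries, with 2 called without WT refed mouse 1, 0 without WT refed mouse 2, 3 without WT fasting mouse 2 and 15 without NAMPT LKO mouse 5. Of 11 genes of the methionine cycle and salvage, 1 passed, or 9.09%. At an unadjusted p under 0.05 in edgeR's quasi-likelihood test, 4 did, or 36.4%, against 22.3% of all genes tested. Ahcyl2, an Ahcy-like gene, was 31.1 and 30.7 CPM in WT refed livers and 15.7, 11.9 and 13.7 CPM in WT fasting livers (log2 fold change -1.16, edgeR adjusted p = 0.00402). Ahcyl2 fell while Ahcy rose. Ahcyl1, another Ahcy-like gene, had a log2 fold change of 0.047 (edgeR adjusted p = 0.87).

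Of 18 folate genes tested, 3 passed, or 16.7%, against 7.04% of all genes tested. At an unadjusted p under 0.05 in edgeR's quasi-likelihood test, 7 did, or 38.9%, against 22.3% of all genes tested. No test was made of the list itself. Gart and Atic, which use formylated folate in purine synthesis, fell together. Gart was 24.4 and 26.1 CPM in WT refed livers and 15.9, 15.6 and 16.4 CPM in WT fasting livers (log2 fold change -0.66, edgeR adjusted p = 0.00641). Atic was 35.9 and 38.9 CPM against 18.7, 18.7 and 21.7 CPM (log2 fold change -0.93, edgeR adjusted p = 0.00641). Slc25a32, the mitochondrial folate carrier, rose from 11.2 and 11.0 CPM to 23.8, 23.0 and 21.5 CPM (log2 fold change 1.04, edgeR adjusted p = 0.0342). The groups of these 3 genes did not overlap, as for 49.7% of all genes tested.

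Of 9 tested genes of serine and glycine metabolism, 1 passed, or 11.1%, against 7.04% of all genes tested. At an unadjusted p under 0.05 in edgeR's quasi-likelihood test, 6 did, or 66.7%, against 22.3% of all genes tested. These included Phgdh, whose value was set by 1 liver, and no test was made of the list itself. Psph, the last enzyme of serine synthesis, fell from 6.89 and 6.86 CPM to 4.04, 3.78 and 3.46 CPM (log2 fold change -0.87, edgeR adjusted p = 0.0414). Of 13 genes of cysteine, taurine, sulfide and glutathione metabolism, 1 passed, or 7.69%, and 3 had an unadjusted p under 0.05, or 23.1%. Cdo1, which oxidizes cysteine, rose from 1307 and 1316 CPM to 2031, 2129 and 1856 CPM (log2 fold change 0.61, edgeR adjusted p = 0.0225). None of 8 SAM-dependent small molecule methyltransferases and none of 5 genes of choline and betaine oxidation passed in edgeR's quasi-likelihood test, and 0 of either did at an unadjusted p under 0.05. Their lowest p values belonged to Gamt, which makes creatine (log2 fold change -0.34, edgeR adjusted p = 0.316), and Pipox, which degrades sarcosine, the product of Gnmt (0.15, edgeR adjusted p = 0.535).

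Between the fasted genotypes, 0 of 64 pathway genes passed in edgeR's quasi-likelihood test, and 4 had an unadjusted p under 0.05, or 6.25%, against 6.03% of the genes tested. Among them, and named after their values were seen, were As3mt (log2 fold change 0.36), Aldh1l1 (-0.37) and Phgdh (-3.09). Phgdh, the first enzyme of serine synthesis, was 4.46 CPM in WT fasting mouse 2 and 0.0672 to 0.266 CPM in the other 9 libraries, so 1 liver set its value. The 6 genes called between the WT groups had log2 fold changes from -0.26 (Psph) to 0.12 (Gart) here, as the plot of pathway genes shows, and the 64 genes had a median of -0.054.

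**Figure D4:**
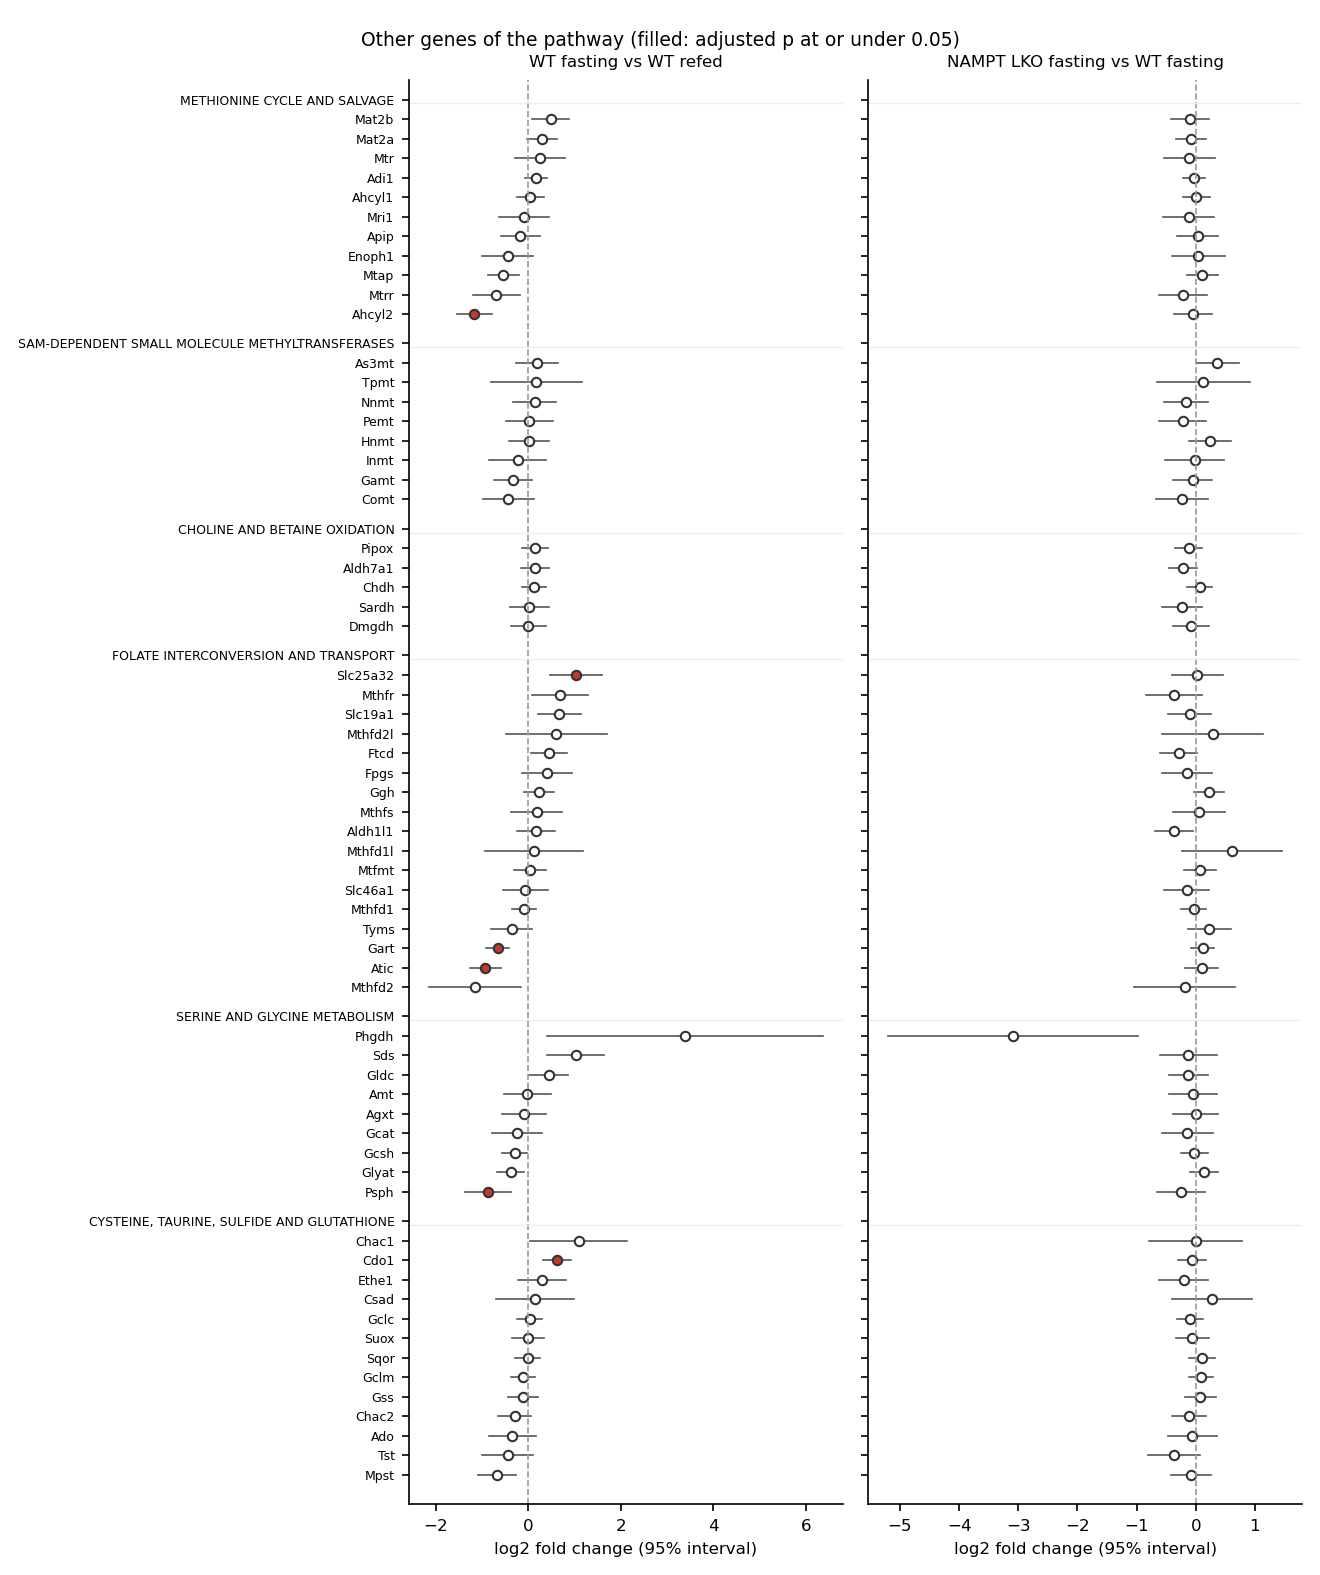
Log2 fold change (points) and 95% interval (lines) of the tested pathway genes by list, without 1 gene that is not shown, in WT fasting vs. WT refed livers (left) and between the fasted genotypes (right). Filled points passed an adjusted p of 0.05, which 6 genes did on the left and 0 did on the right. The outlying value of Phgdh rests on 1 liver.

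NAMPT LKO fasting vs. WT refed livers gave 11 called pathway genes of 64, or 17.2%, against 11.2% of all genes tested, with 4 higher and 7 lower. Without WT refed mouse 1 it gave 2, without WT refed mouse 2 it gave 1 and without NAMPT LKO mouse 5 it gave 22. The WT refed libraries are shared with the comparison of the WT groups. Of the genes named there, Ahcyl2 had a log2 fold change of -1.21, Gart of -0.55, Atic of -0.83, Slc25a32 of 1.06, Psph of -1.13 and Cdo1 of 0.56, and all 6 passed. Of the other 5, those given here are named after their values were seen. Sds, which deaminates serine, had a log2 fold change of 0.90, next to 1.03 in WT fasting vs. WT refed livers (edgeR adjusted p = 0.0528). Mtrr, which reactivates methionine synthase, had a log2 fold change of -0.91, and the sulfur transferases Mpst and Tst of -0.76 and -0.81. In WT fasting vs. WT refed livers, Mtrr, Mpst and Tst had values of -0.69, -0.68 and -0.44 (edgeR adjusted p = 0.0987, 0.0545 and 0.326).

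The gene most alike to each member was found by Pearson's r of log2 levels over the 10 libraries, among the 9136 tested genes that averaged 5 CPM or more. The 10 libraries share their groups and include the library that stood apart, and these values are descriptions. Ahcy was most alike to Elovl3 (r = 0.942), a fatty acid elongase, and Gnmt to Prdx5 (r = 0.892), a peroxiredoxin. Mat1a was most alike to Rbbp6 (r = 0.953), Bhmt to Sh3bp5 (r = 0.971), Bhmt2 to Cr1l (r = 0.961) and Cbs to Nelfa (r = 0.949). Shmt1 was most alike to Bcr (r = 0.966) and Shmt2 to Mien1 (r = 0.957). Cth had the weakest closest gene, Mrpl58 (r = 0.76). Among the members themselves, r was highest between the neighbours Bhmt and Bhmt2 (0.839) and between Shmt1 and Shmt2 (0.749). It was lowest, and larger in size than either, between Mat1a and Shmt1 (-0.869).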

How the data were processed

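Poly-A RNA of 10 livers was sequenced by the authors, with 1 library per sample. Per the labels, the authors aligned reads to GRCm38 with STAR 2.5.1a and counted them with featureCounts 1.4.6-p5 (the methods give other versions). The deposited count is a whole number of reads per Ensembl gene. The authors also deposited CPM and RPKM values, which equal the counts scaled by library total and exonic length. Symbols were taken from GENCODE M21, which named 40254 of 41388 genes.

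A gene was kept if any library exceeded 1 CPM, and rRNA genes were removed. For the resulting 13444 genes, edgeR 4.0.16 (R 4.3.3) supplied TMM factors and a quasi-likelihood test (legacy glmQLFit). A single fit of the 10 libraries estimated 1 mean for each group, and p-values were adjusted over all genes tested by Benjamini-Hochberg. The test was checked on simulated data. Alternatives were DESeq2 1.42.0, edgeR's exact test, voomWithQualityWeights of limma 3.58.1, other normalizations, filters, thresholds and libraries, and removal of the trend with GC content (loess span 0.5).

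The members, gene lists and tests were chosen with earlier results of these data known. Named genes were all members, Nampt, each pathway gene called between the WT groups or between the fasted genotypes (in a list with none, the lowest p between the WT groups), the most alike gene of each member and the defining marker that moved. Outside this rule, Ahcyl1, As3mt, Aldh1l1, Phgdh, Sds, Mtrr, Mpst, Tst and the markers Spp1, Sox9, Krt7 and Col1a1 were named after their values were seen. Nothing in the labels says that samples were reared apart, so p-values measure the spread between these samples. No replicate pair agreed within sampling noise. Same-numbered WT fasting and NAMPT LKO fasting libraries deviated together with r of 0.10, 0.078 and 0.097. For differently numbered libraries r ranged from -0.17 to 0.13. The numbers were not treated as pairs, and a fit with them as a block is among the alternatives. The values of 1 gene of the pathway lists are not reported here, although it is included in the counts.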

Additional observations from a re-analysis of the deposited data

Results flagged for a closer look

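Among the 5 NAMPT LKO fasting livers, a single liver lay farther from the others than Dixon's 95% limit allows for several values. In mouse 5, Mat1a was 7014 CPM (gap 0.829 of the range of the group) and Bhmt was 7779 CPM (gap 0.781). The same liver had 21.1% of its counts on mitochondrially encoded genes (gap 0.766), and its median absolute log2 deviation over genes from the mean of the other libraries was 0.381 (gap 0.893). In mouse 1 the ratio of Shmt1 to Shmt2 RPKM was 0.476 (gap 0.837). The values screened were all members, Nampt, the Shmt1/Shmt2, Bhmt2/Bhmt and Cbs/Cth ratios, the mitochondrial share and the median absolute deviation. The flags of mouse 5 come from the same library and are not independent. Chance flags about 1 in 20 such groups, and the limit is 0.71. Bhmt2 of mouse 5, at 411.5 CPM, stayed under it with a gap of 0.662.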

How the results depend on the processing

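The rise of Ahcy in WT fasting vs. WT refed livers stayed past the threshold in 18 of 20 alternatives (log2 fold change 0.63 to 0.72) and was lost without either WT refed library. In NAMPT LKO fasting vs. WT refed livers it stayed in 12 of 20 and was lost in 8. Besides the 4 libraries named in the report, these were edgeR's exact test (0.45, adjusted p = 0.0731), library size alone (0.36, adjusted p = 0.103), no filter beyond 1 count (0.42, adjusted p = 0.128) and a fit of only the libraries of the 2 groups (0.44, adjusted p = 0.0634). Gnmt, Ahcy and Shmt2 kept their sign between the fasted genotypes in all 22 alternatives and passed in none. Where a value changed, the cause was not tested, and 2 WT refed libraries limit every comparison with them.

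In WT fasting vs. WT refed livers, 946 genes were called, and 1646 with DESeq2, 3331 with voomWithQualityWeights, 1649 with only the libraries of the 2 groups, 1425 after removal of the GC trend, 3002 unadjusted (p under 0.05), 397 at a log2 change of 1 or more, and 107 to 2231 with each library left out, the highest without NAMPT LKO mouse 5. Members called went from 1 to 3 with voomWithQualityWeights (with Mat1a and Shmt1), 0 at a log2 change of 1 or more, and 0 to 2 with each library left out. Pathway genes called went from 6 to 11 with DESeq2, 21 with voomWithQualityWeights, 14 with only the libraries of the 2 groups, 20 unadjusted, 2 at a log2 change of 1 or more, and 0 to 15 with each library left out (0 without WT refed mouse 2, 2 without WT refed mouse 1, 3 without WT fasting mouse 2 and 15 without NAMPT LKO mouse 5). Signs reversed for Bhmt and Cth, given as log2 fold changes. Bhmt was -0.051 with library size alone and -0.25 to 0.18 with each library left out, and Cth was 0.081 with voomWithQualityWeights and -0.34 to 0.35 with each library left out.

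Between the fasted genotypes, 1 gene was called, and 24 under edgeR's exact test, 24 under DESeq2, 2 with library size alone, 17 with no filter beyond 1 count, 3 with filterByExpr, 3 after removal of the GC trend, 811 unadjusted, and 1 to 2 with each library left out. Members and pathway genes called stayed at 0 except unadjusted (3 and 4). In libraries numbered 1 to 3 alone, 0 genes were called with a replicate block and 0 without. WT fasting mouse 1 correlated best with NAMPT LKO mouse 4 (r = 0.13), mouse 2 with NAMPT LKO mouse 5 (0.10) and mouse 3 with NAMPT LKO mouse 3 (0.097). With that block Bhmt was -0.42, Cth -0.079 and Shmt1 0.001, and without it -0.44, -0.089 and 0.0031. Bhmt was -0.49 with voomWithQualityWeights, -0.035 with library size alone, -0.092 with the GC trend removed and -0.39 to 0.30 with each library left out. Cth was -0.13 with voomWithQualityWeights, -0.024 with library size alone, -0.0068 with no filter beyond 1 count, -0.058 with the GC trend removed and -0.080 to 0.16 with each library left out. Mat1a was 0.0077 with only the libraries of the 2 groups, 0.0062 with the GC trend removed and -0.10 to 0.034 with each library left out.

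In NAMPT LKO fasting vs. WT refed livers, 1510 genes were called, and 4281 with voomWithQualityWeights, 3507 unadjusted, 491 at a log2 change of 1 or more, and 227 to 2835 with each library left out. Members called went from 1 to 0 with edgeR's exact test, library size alone, no filter beyond 1 count, only the libraries of the 2 groups and a log2 change of 1 or more, to 3 with DESeq2, 4 with voomWithQualityWeights, 4 unadjusted and 0 to 2 with each library left out. Pathway genes called went from 11 to 29 with voomWithQualityWeights, 22 unadjusted, 3 at a log2 change of 1 or more and 1 to 22 with each library left out. Bhmt was -0.38 with voomWithQualityWeights, -0.086 with library size alone, -0.067 with the GC trend removed and -0.36 to 0.19 with each library left out. With each library left out, Bhmt2 was -0.21 to 0.038, Cbs -0.20 to 0.062 and Cth -0.34 to 0.35. Of the called genes, 38.1% were higher in WT fasting than in WT refed livers and 25.7% with library size alone, and 41.4% and 26.1% were higher in NAMPT LKO fasting than in WT refed livers.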
